A study of Mus musculus with 120 samples.

Results

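Genes of vascular endothelium that encode cell-surface receptors and junction proteins were followed in mouse embryonic stem (mES) cells in which single genes were induced. The members were the 10 genes Kdr, Flt1, Tek, Tie1, Robo4, Ramp2, Esam, Cdh5, Pecam1 and Arhgef15, taken by symbol from the array annotation. They had 16 probe sets that name 1 of them alone among the 45101 probe sets of the Mouse 430_2 array, which name 18194 genes in all. On the smaller Mouse 430A_2 array, 12 of 22690 probe sets named 9 of the 10 members, since Arhgef15 had none there. On each array 2 further probe sets name Ramp2 together with its neighbour Vps25, and they were left out.

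The study induced 20 genes, mostly mouse orthologs of HSA21 genes and in 3 cases (ZFP295, DYRK1A and SNF1LK) human coding sequences, 1 at a time, and asked what each does to the mES transcriptome. HSA21 is the human chromosome that is trisomic in Down syndrome. Every clone descends from the EBRTcH3 (EB3) line, carries the coding sequence without untranslated regions and with a FLAG tag in the ROSA26 locus under a Tet-off promoter, and was grown in medium with LIF, which keeps mES cells undifferentiated. Induced clones were profiled after removal of tetracycline and uninduced clones, of the same genotype, with tetracycline present. The time without tetracycline was 24 h for Erg, Ets2, Gabpa, Runx1, Nrip1, Bach1, Dscr1, Olig1, Olig2, Pknox1, RIKEN-1810007M14, Dyrk1a, Snf1lk, Pfkl and Zfp295, 39 h for Hunk, Ripk4 and Sim2, and 48 h for Aire and Pdxk. These times are those of the sample labels, and for Pfkl the supplementary material of the study gives another. Each of the 20 experiments held 3 clones, each profiled in both states, for 120 arrays in all, and only Runx1 was run on the Mouse 430A_2 array. Removal of tetracycline was shared by every induced group, so the 18 other Mouse 430_2 experiments serve as the background for Erg.

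Endothelial cells line blood vessels and are specified through growth factor receptors that they carry at their surface. Kdr and Flt1 encode receptors for vascular endothelial growth factors, Tek is the angiopoietin receptor and Tie1 its orphan relative. Robo4 is an endothelial roundabout receptor, and Ramp2 is the accessory protein that turns the calcitonin receptor-like receptor, Calcrl, into a receptor for adrenomedullin. Cdh5 (VE-cadherin), Esam and Pecam1 are adhesion proteins of the contacts between endothelial cells, and Arhgef15 is a guanine nucleotide exchange factor that is prominent in endothelium. Erg, Ets2 and Gabpa are ETS transcription factors, a family that binds DNA around a GGAA core, and Erg is itself characteristic of endothelium. Runx1 is needed for the first blood stem cells to emerge from endothelium.

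Since Erg and its ETS relatives read a GGAA core, the promoter windows of the members were searched for it, and 5 of the 10 members had a window in the RefSeq promoter table. Each window runs 5′ to 3′ from 250 bases before to 50 bases after the start base that this table uses on build GRCm38.p6, with every GGAA and its reverse complement TTCC in capitals. That base is the outer end of the gene in the RefSeq gene table for Tie1, and lies inside the gene for Robo4 by 70 bases, Tek by 203, Flt1 by 427 and Kdr by 617. Kdr lies at chr5:75978406-75978705 on the minus strand, Tie1 at chr4:118489800-118490099 on the minus strand and Robo4 at chr9:37401722-37402021 on the plus strand. Tek lies at chr4:94739039-94739338 on the plus strand and Flt1 at chr5:147725962-147726261 on the minus strand. The first 3 belong to genes that rose with Erg and the last 2 to genes that did not pass the test there.
Kdr: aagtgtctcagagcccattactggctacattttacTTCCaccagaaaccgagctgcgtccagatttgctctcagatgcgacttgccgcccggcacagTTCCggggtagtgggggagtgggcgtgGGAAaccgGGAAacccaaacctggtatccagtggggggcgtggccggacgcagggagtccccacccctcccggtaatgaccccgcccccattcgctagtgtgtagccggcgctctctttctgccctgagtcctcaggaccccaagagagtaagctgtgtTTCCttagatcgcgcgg
Tie1: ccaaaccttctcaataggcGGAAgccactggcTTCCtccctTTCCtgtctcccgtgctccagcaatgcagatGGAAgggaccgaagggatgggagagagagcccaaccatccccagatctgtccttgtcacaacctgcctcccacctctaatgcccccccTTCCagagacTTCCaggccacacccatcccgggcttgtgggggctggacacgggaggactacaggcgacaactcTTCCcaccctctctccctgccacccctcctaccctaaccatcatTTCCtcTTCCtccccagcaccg
Robo4: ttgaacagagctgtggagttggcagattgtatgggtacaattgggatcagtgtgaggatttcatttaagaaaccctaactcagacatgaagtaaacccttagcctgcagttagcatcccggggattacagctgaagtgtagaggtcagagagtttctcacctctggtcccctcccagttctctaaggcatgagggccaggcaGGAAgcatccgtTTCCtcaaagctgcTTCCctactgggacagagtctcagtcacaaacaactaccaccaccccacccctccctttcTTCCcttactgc
Tek: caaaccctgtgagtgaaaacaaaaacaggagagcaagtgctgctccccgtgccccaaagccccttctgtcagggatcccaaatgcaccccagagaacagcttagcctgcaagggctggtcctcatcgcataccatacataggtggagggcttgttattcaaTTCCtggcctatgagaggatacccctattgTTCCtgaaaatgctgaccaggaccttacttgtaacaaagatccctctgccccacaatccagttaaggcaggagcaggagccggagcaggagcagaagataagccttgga
Flt1: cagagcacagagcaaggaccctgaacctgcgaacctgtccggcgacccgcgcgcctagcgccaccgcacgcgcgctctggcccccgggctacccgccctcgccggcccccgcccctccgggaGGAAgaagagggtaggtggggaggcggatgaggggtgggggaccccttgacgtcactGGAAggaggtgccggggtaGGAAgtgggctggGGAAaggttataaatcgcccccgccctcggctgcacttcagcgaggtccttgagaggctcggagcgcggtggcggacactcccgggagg

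The Tie1 window held 9 GGAA cores on either strand, the Kdr window 5, the Robo4 and Flt1 windows 4 each and the Tek window 2. A GGAA core is common, since 96.0% of all 32851 windows of this length held at least 1 and the median window held 3. At least as many cores as in Tie1 were found in 1.59% of windows, and at least as many as in Kdr in 28.6%. At least as many as in Robo4 or Flt1 were found in 46.3%, and at least as many as in Tek in 84.6%. The longer letters AGGAAG, searched on both strands and overlapping the core, matched 2 times in Tie1, 2 times in Flt1 and 1 time in Robo4, with 0 matches in Kdr and Tek and at least 1 in 35.4% of all windows. The Runx letters TGTGGT on either strand had 0 matches in all 5 windows and at least 1 in 16.8% of all windows. Robo4, which rose with Erg, and Flt1, which did not pass, had the same number of cores. Only 5 of the 10 members had a window, and a link between cores and response was not tested. A match describes letters in a window, and occupancy was not measured.

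All levels below are log2 RMA values, and differences are on the log2 scale unless given as fold. RMA was run separately on each experiment, and levels are therefore compared between induced and uninduced arrays of 1 experiment. Array medians lay between 4.89 and 5.68 over the 19 Mouse 430_2 experiments and between 7.11 and 7.19 on the Runx1 arrays. The cells expressed mES markers in both states. Pou5f1 stood at 12.88 in Erg-induced clones and 13.08 in uninduced clones and did not pass the test. Of 8 such markers 5 were lower with Erg, led by Nanog, at 11.41 in induced clones and 12.55 in uninduced clones. The 2 Erg probe sets did not pass the test in their own experiment, at 4.95 ± 0.02 and 3.47 ± 0.03 in induced clones against 4.90 ± 0.24 and 3.44 ± 0.09 in uninduced clones (SD, n = 3 each). The position of these probe sets relative to the inserted coding sequence was not checked. Of 5 Runx1 probe sets, 2 were higher in Runx1-induced clones, by 1.13 and 1.39 (limma adjusted p = 0.0356 and 0.0375). No Ets2 or Gabpa probe set, 3 and 2 in number, passed the test in its own experiment. The study measured transgene induction by quantitative PCR, and reports FLAG-tagged protein on western blots that included Erg, Ets2 and Gabpa clones.

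In uninduced clones each probe set was described against the probe sets of its own array, which shows how dim it was and ranks no gene above another. The probe sets of Kdr, Tek, Robo4, Ramp2, Esam and Pecam1 lay above the array median in 19 of 19 experiments, Pecam1 by 2.11 to 3.56. Probe sets of 1 gene disagreed: Flt1 probe set 1451756_at lay above the median in 19 of 19, and the other Flt1 probe sets in 0, 1 and 0. Likewise Arhgef15 probe set 1440358_at lay above the median in 15 of 19 and 1455522_at in 10 of 19, while 1457172_at was under the lower quartile in 19. Tie1 was below the median in all 19 and under the lower quartile in 11. Of the 2 probe sets of Cdh5, a defining gene of endothelium, 1422047_at was under the lower quartile in 18 experiments and 1433956_at, which stands for the gene in the lists, in 2, and neither lay above the median in any. Between experiments the uninduced mean of Kdr ranged between 5.44 in the Erg clones and 6.32 in the Dyrk1a clones, and that of Pecam1 between 7.48 in the Bach1 clones and 8.52 in the Erg clones. These ranges carry the separate normalization as well as the clones. In bulk RNA, more cells of a type and more RNA per cell cannot be told apart.

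Erg induction raised 8 of the 10 members after 24 h in the main test, Cdh5 on 1 probe set only. Arhgef15, Ramp2, Tie1 and Robo4 changed most, each by more than 5-fold on at least 1 probe set, followed by Esam and Kdr, while Pecam1 and Cdh5 changed by less than 2-fold. In probe sets, 10 of 16 were higher in induced than in uninduced clones and 0 were lower at an adjusted p below 0.05 in limma (11 and 0 at an unadjusted p below 0.05). Over the whole array 5.71% of probe sets were higher and 6.28% lower. The median difference of the 16 member probe sets was 1.10, against −0.01 over all probe sets. The unadjusted shares over the whole array were 11.1% higher and 12.7% lower. The induced and uninduced arrays did not overlap for 11 of the 16, where 25.7% of all probe sets did not overlap.

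**Figure D1:**
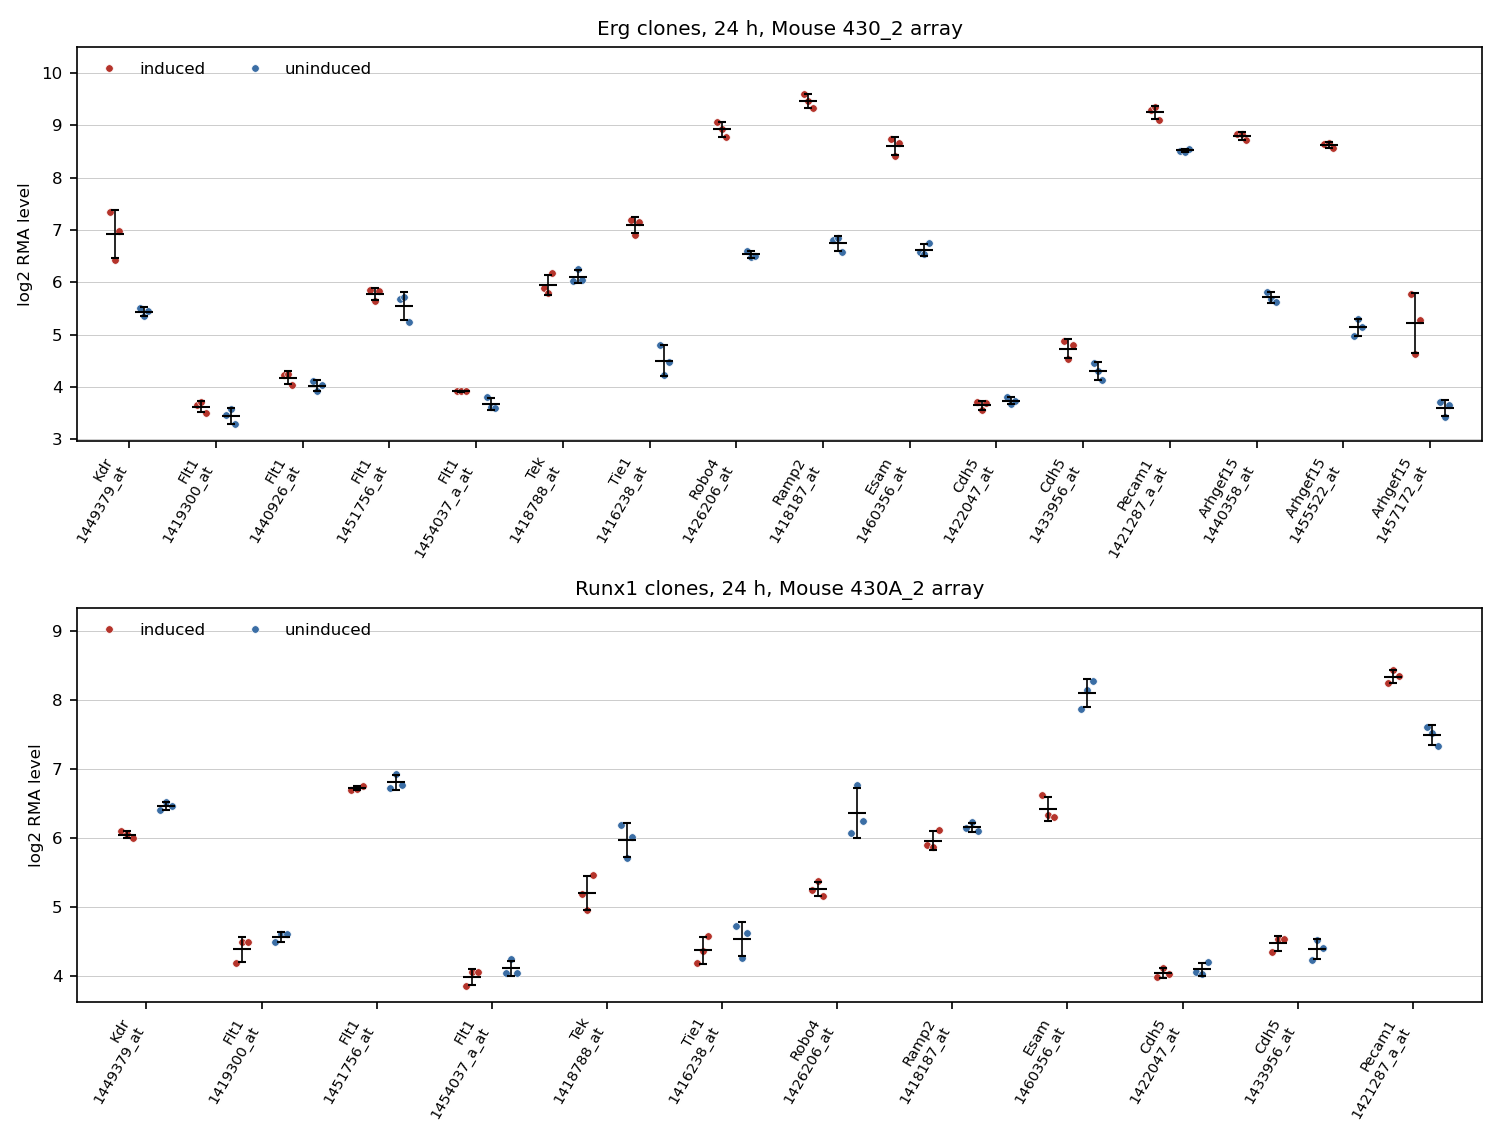
Log2 RMA level of every member probe set on each array of the Erg (top) and Runx1 (bottom) experiments, with induced clones in red on the left and uninduced clones in blue on the right of each pair. Points are the 3 clones, and bars are mean and SD. In the Erg clones Tie1, Robo4, Ramp2, Esam, Kdr, Pecam1 and all 3 Arhgef15 probe sets lie wholly above their uninduced arrays, while Esam, Robo4, Tek and Kdr lie wholly below theirs in the Runx1 clones.

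Among the growth factor receptors, Kdr was 7.35, 6.43 and 6.97 in the 3 Erg-induced clones and 5.51, 5.35 and 5.45 in the same clones uninduced. All 3 induced arrays lay above all uninduced arrays, although clone 2 responded by 1.08 and clone 1 by 1.84. The difference was 1.48 (SE 0.14, 2.79-fold, limma adjusted p = 0.000584). Flt1, the other VEGF receptor of the set, was 5.85, 5.64 and 5.84 in induced clones and 5.69, 5.71 and 5.25 in uninduced clones on its brightest probe set, 1451756_at. These arrays overlapped, and the 4 Flt1 probe sets differed by 0.15 to 0.24 with adjusted p-values between 0.117 and 0.402. The 2 VEGF receptors thus differed in whether they passed the test, and the difference between them was not tested.

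Of the Tie family Tie1 passed the test and Tek did not, and the difference between them was not tested. Tie1 was 7.20, 6.91 and 7.16 in Erg-induced clones and 4.81, 4.23 and 4.47 in uninduced clones, a difference of 2.59 (SE 0.09, 6.02-fold, adjusted p = 1.44e-05). It was below the array median in uninduced clones and above it on every induced array. Tek, which encodes Tie2, was 5.89, 5.80 and 6.17 in induced clones and 6.03, 6.25 and 6.05 in uninduced clones. Its groups overlapped, clones moved in both directions, and the difference was −0.16 (SE 0.12, adjusted p = 0.494).

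Robo4 and Ramp2 had nearly the same response in all 3 clones. Robo4 was 9.06, 8.93 and 8.77 in Erg-induced clones and 6.61, 6.48 and 6.51 in uninduced clones, or 2.39 higher (SE 0.08, 5.24-fold, adjusted p = 1.31e-05). Ramp2 was 9.60, 9.46 and 9.34 in induced clones and 6.81, 6.84 and 6.58 in uninduced clones, or 2.72 higher (SE 0.08, 6.60-fold, adjusted p = 9.32e-06). For both genes the clones differed from each other by far less than the induced arrays differed from the uninduced ones. Calcrl, the receptor that Ramp2 accompanies, stayed among the dim probe sets, at 2.95 in induced and 3.02 in uninduced clones (difference −0.07, adjusted p = 0.728).

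Of the junction genes, Esam responded most. It was 8.74, 8.41 and 8.67 in Erg-induced clones and 6.58, 6.54 and 6.75 in uninduced clones, 1.98 higher (SE 0.09, 3.96-fold, adjusted p = 3.20e-05). Pecam1, which mES cells already express, was 9.29, 9.36 and 9.11 in induced clones and 8.52, 8.50 and 8.56 in uninduced clones. Its groups were apart and the difference was 0.73 (SE 0.09, 1.66-fold, adjusted p = 0.00205). Cdh5 was 4.88, 4.53 and 4.79 in induced clones and 4.47, 4.31 and 4.14 in uninduced clones on probe set 1433956_at, 0.43 higher (SE 0.10, 1.34-fold, adjusted p = 0.0321). Its dimmer probe set 1422047_at differed by −0.08 (adjusted p = 0.601), so the 2 probe sets disagreed. The Cdh5 call was lost without the clone as a block (adjusted p = 0.0653), without clone 1 (0.0929) or clone 3 (0.181), and in the mean of both probe sets (0.17 higher, adjusted p = 0.233). It was also lost in the fit over all Mouse 430_2 arrays (adjusted p = 0.0639) and in the methods' t-test (0.251).

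Arhgef15, the exchange factor, had the largest difference of any member in any of the 20 experiments. Probe set 1455522_at was 8.65, 8.66 and 8.56 in Erg-induced clones and 4.98, 5.29 and 5.14 in uninduced clones, 3.48 higher (SE 0.09, 11.2-fold, adjusted p = 5.44e-06). Probe set 1440358_at was 8.84, 8.84 and 8.72 in induced clones and 5.82, 5.69 and 5.62 in uninduced clones, 3.09 higher (8.50-fold, adjusted p = 5.44e-06). These 2 probe sets put the change between 3.01 and 3.67 in every clone. The dim probe set 1457172_at was 5.78, 4.63 and 5.28 in induced clones and 3.71, 3.42 and 3.65 in uninduced clones, 1.64 higher (SE 0.15, 3.11-fold, adjusted p = 0.000526). Its spread among induced clones followed that of Kdr, with clone 1 highest and clone 2 lowest.

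A joint fit over all Mouse 430_2 arrays tested whether the response to Erg differed from that to the other 18 genes. It was higher for 9 of the 16 probe sets and lower for 0, where 5.12% of all probe sets were higher and 7.18% lower. The excess over the mean of the other 18 was 1.39 for Kdr (SE 0.12, adjusted p = 2.15e-12), 2.58 for Tie1 (SE 0.15), 2.34 for Robo4 (SE 0.14), 2.71 for Ramp2 (SE 0.14), 1.98 for Esam (SE 0.12) and 0.75 for Pecam1 (SE 0.13, adjusted p = 3.23e-05). For the 3 Arhgef15 probe sets it was 3.09, 3.48 and 1.63. The largest of the adjusted p-values of these 9 was that of Pecam1. Cdh5 did not pass here, at 0.40 for probe set 1433956_at (SE 0.16, adjusted p = 0.106), and neither did Flt1, at 0.14 to 0.23, or Tek, at −0.31 (SE 0.14, adjusted p = 0.185).

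Clone by clone, the smallest Erg response of Kdr, Tie1, Robo4, Ramp2, Esam and each Arhgef15 probe set was above the response of all 54 clones of the other 18 experiments. The share of all probe sets that stand clear in this way was not taken, so these ranges only describe the members. For Tie1 the 3 Erg clones lay between 2.39 and 2.69, against −0.84 to 0.55 in the other 54 clones with a median of −0.02. For Ramp2 they lay between 2.62 and 2.79, against −0.79 to 1.04. For Pecam1, 1 of the other 54 clones exceeded the lowest Erg clone (0.56), and for Cdh5 probe set 1433956_at 10 did (lowest Erg clone 0.21). The Erg clones of Tek lay between −0.46 and 0.13, and the lowest of them was below all 54 others.

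**Figure D2:**
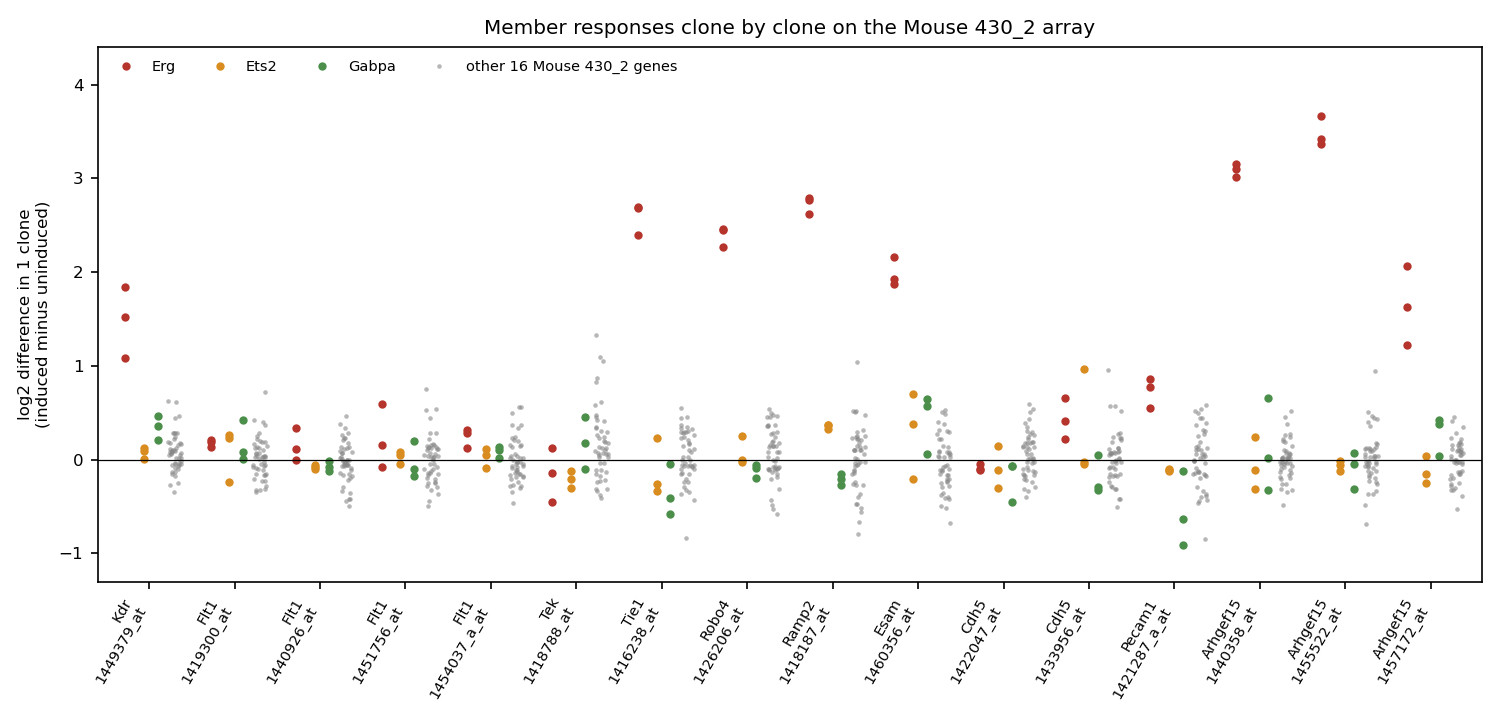
Induced minus uninduced log2 difference in each clone for the 16 member probe sets on the Mouse 430_2 array, with Erg clones in red, Ets2 in orange, Gabpa in green and the clones of the other 16 genes in grey. The Erg clones stand clear of all others for Kdr, Tie1, Robo4, Ramp2, Esam and Arhgef15, and lie among them for Flt1.

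In Ets2 and in Gabpa clones, at the same time point, 0 of the 16 probe sets passed in limma in either direction, and 0% of all probe sets of either experiment did. At an unadjusted p below 0.05, 1 was higher and 1 lower with Ets2, where 2.39% of all probe sets were higher and 2.86% lower. With Gabpa 2 were higher and 2 lower, where 6.25% of all were higher and 5.27% lower. In the fit over all Mouse 430_2 arrays Esam passed as higher (0.42, adjusted p = 0.0189) and Pecam1 as lower (−0.55, adjusted p = 0.00364) with Gabpa, and both passed without clone 2 (adjusted p = 0.0346 and 0.0146). The share of all probe sets called with Gabpa under these 2 settings was not taken. Same-numbered Gabpa arrays deviated together in 1 of 3 pairs only (r between −0.18 and 0.17). The Erg response exceeded that of Ets2 for 9 of 16 probe sets, with 2.77% of all probe sets higher, and that of Gabpa for the same number, with 4.93% higher. Tie1 was 2.71 higher with Erg than with Ets2 (SE 0.21) and 2.93 higher than with Gabpa (SE 0.21), and Pecam1 was 0.84 and 1.28 higher (SE 0.18 each). How much transgene each set of clones made was not measured here, and dose was therefore not matched.

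Runx1 induction had a different pattern over the 12 probe sets of its array. In it 4 members, Esam, Robo4, Tek and Kdr, were lower in induced clones and Pecam1 was higher. In counts, 4 of 12 probe sets were lower, where 7.65% of all probe sets were lower, and 1 of 12 was higher, where 8.51% were higher. The median of the 12 was −0.17, against −0.03 over all probe sets. Arhgef15 was not measured there.

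Esam was 6.61, 6.32 and 6.30 in Runx1-induced clones and 7.87, 8.15 and 8.27 in uninduced clones, lower by a log2 difference of −1.68 (SE 0.14, 0.311 times the uninduced level, adjusted p = 0.00165). Robo4 was 5.25, 5.37 and 5.16 in induced clones and 6.06, 6.77 and 6.25 in uninduced clones (−1.10, SE 0.12, adjusted p = 0.00328). Both genes, which rose with Erg, thus lay wholly below their uninduced arrays. Tek, which did not pass with Erg, was 5.19, 4.95 and 5.46 in induced clones and 6.19, 5.70 and 6.01 in uninduced clones (−0.77, SE 0.10, adjusted p = 0.00605). Kdr was 6.09, 6.05 and 5.99 in induced clones and 6.41, 6.51 and 6.46 in uninduced clones (−0.41, SE 0.07, adjusted p = 0.0130). The Kdr change was small but clear of the spread within each state, which was 0.05 in both, and its call was lost without clone 2 (adjusted p = 0.0674).

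Pecam1 was the 1 member that rose in both experiments. It was 8.24, 8.43 and 8.34 in Runx1-induced clones and 7.61, 7.52 and 7.33 in uninduced clones, 0.85 higher (SE 0.09, 1.80-fold, adjusted p = 0.00335). Among the remaining probe sets of Flt1, Tie1, Ramp2 and Cdh5 the differences lay between −0.20 and 0.09, induced and uninduced arrays overlapped for each, and the lowest adjusted p was 0.137. Tie1 and Ramp2, at 2.59 and 2.72 with Erg, were at −0.17 and −0.20 with Runx1. Tie1 and Cdh5 probe set 1433956_at lay under the lower quartile of the Runx1 arrays in both states, where a fall could be missed. The experiments were run on different arrays and normalized apart, so the difference between Erg and Runx1 was not tested.

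**Figure D3:**
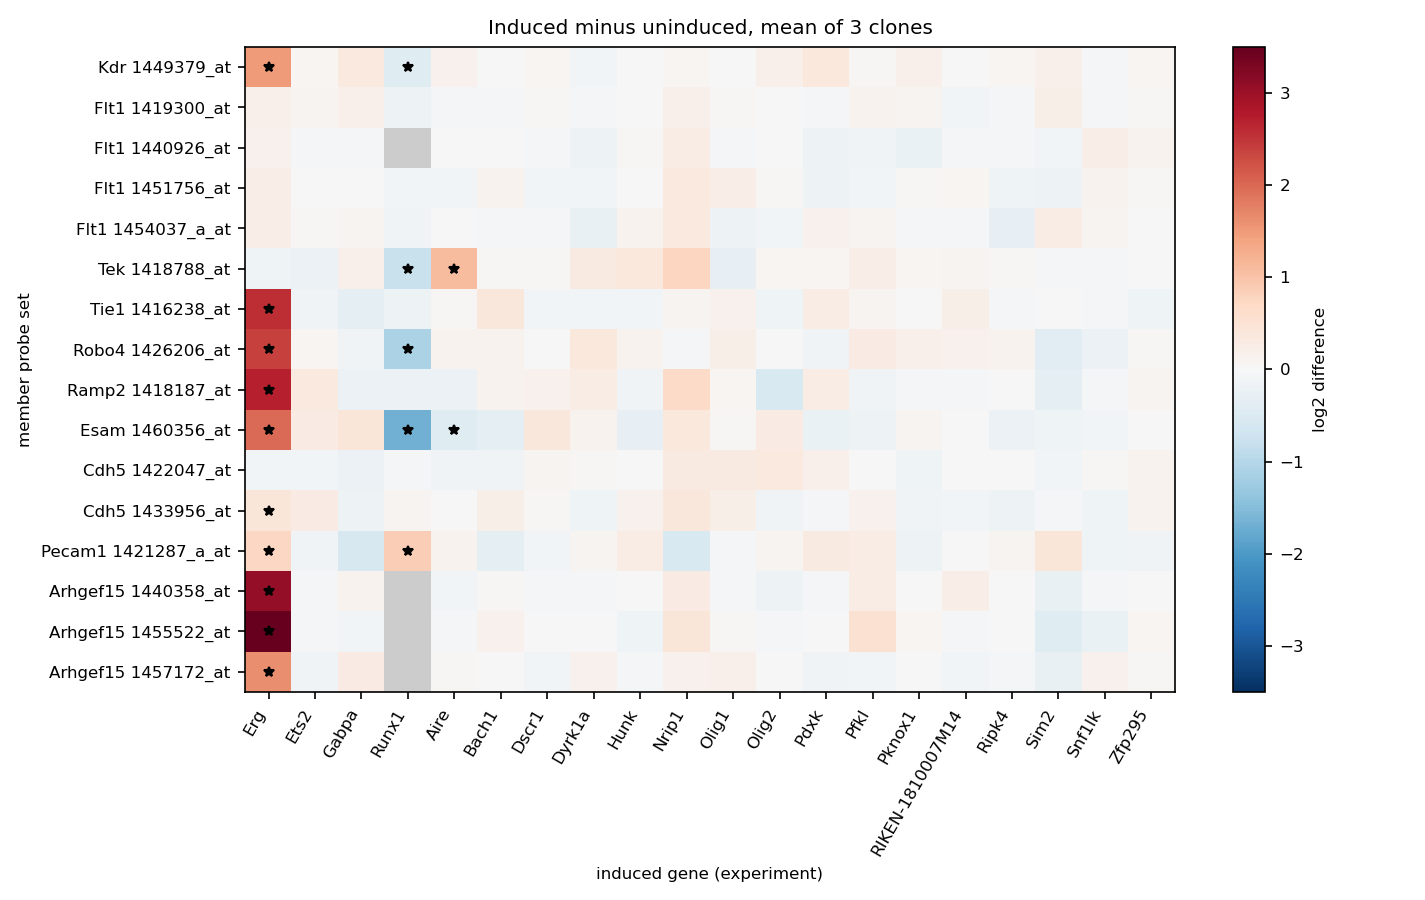
Mean induced minus uninduced log2 difference over 3 clones for each member probe set (rows) and each induced gene (columns), with red for higher and blue for lower in induced clones, stars for an adjusted p below 0.05 and grey for probe sets that the Runx1 array does not carry. The Erg column holds 10 stars, Runx1 5, Aire 2 and the other 17 columns 0.

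In the other 18 experiments 2 of the member tests passed, both in Aire clones. Aire, at 48 h, had 1 probe set higher and 1 lower, where 2.45% of all probe sets were higher and 1.48% lower. Tek was 7.93, 6.82 and 6.80 in Aire-induced clones and 7.06, 5.73 and 5.47 in the same clones uninduced. The groups overlapped because clone 1 was high in both states, yet each clone rose, by 0.87, 1.09 and 1.32, for a mean of 1.10 (SE 0.09, adjusted p = 0.00325). Without the clone as a block the spread between clones entered the test and the adjusted p was 0.385. Esam was 6.83, 7.06 and 6.79 in Aire-induced clones and 7.18, 7.46 and 7.31 in uninduced clones (−0.43, SE 0.07, adjusted p = 0.0209), and did not pass without the block (0.175) or without clone 3 (0.163).

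The remaining 17 Mouse 430_2 experiments gave 0 calls in 272 member tests with limma, where 0.182% of all tests of those experiments were called. An unadjusted p below 0.05 was found in 43 of the 272, where 7.8% of all tests of those experiments had one. The median absolute difference was 0.10, and 6 were above 0.5 in size. The largest were in Nrip1 clones, a nuclear receptor corepressor. There Tek was 6.49, 7.73 and 7.21 in induced clones and 6.08, 6.68 and 6.38 in uninduced clones (0.76, SE 0.14, adjusted p = 0.102), and Ramp2 was 7.23, 7.10 and 7.12 in induced clones and 6.75, 6.06 and 6.60 in uninduced clones (0.68, SE 0.13, adjusted p = 0.124). All 3 clones were higher for both genes, and neither difference passed within its own experiment. With the spread taken over all Mouse 430_2 arrays in the joint fit both passed (adjusted p = 0.000157 and 0.000464). There Arhgef15 probe set 1455522_at was also higher with Nrip1 (0.41, adjusted p = 0.0221) and Pecam1 lower (−0.54, adjusted p = 0.00592). The share of all probe sets called in the joint fit was not taken for single experiments. Whether these calls exceed it is therefore not known. The median difference of the 16 member probe sets in Nrip1 clones was 0.30, against −0.003 over all probe sets. The lowest adjusted p of the 272 was 0.0541, for Ramp2 in Olig2 clones (−0.54), a gene and experiment singled out after the values were seen. It passed in the joint fit (adjusted p = 0.0177), without dim probe sets (0.0267), with another moderation (0.00405) and without clone 2 (0.0403). The joint fit also called Kdr with Pdxk (0.38), Arhgef15 1455522_at with Pfkl (0.53) and Sim2 (−0.41), and Pecam1 with Sim2 (0.42).

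The members moved together mainly through the Erg experiment. Over the 19 Mouse 430_2 experiments the mean differences of the 45 pairs of members had a median Pearson correlation of 0.479, and without the Erg experiment 0.0758 over 18. The probe sets whose differences followed the mean of the members most closely over the 19 experiments were those of Hspa12b (r = 0.987), Rflna (0.984), Lrtm2 (0.980), Chst1 (0.979) and F5 (0.978), out of 34941 probe sets compared. Hspa12b encodes an endothelial relative of the heat shock proteins, Chst1 a sulfotransferase and F5 coagulation factor V. They were higher by more than 2 and by up to 3.04 in Erg clones, and without the Erg experiment their correlations were 0.448 to 0.770. The 5 highest without Erg were other genes, led by Spin2c (0.854), which changed by 0.16 in Erg clones. The experiments share the array type and the parental line but not the clones.

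The gene lists below are read against the probe sets that stand for a gene, of which 6.69% were higher and 9.33% lower with Erg, and 9.99% higher and 8.5% lower with Runx1. None of the ligands of these receptors passed as higher with Erg. Of 11 ligand genes 0 were higher and 3 were lower, with a median of −0.11: Vegfc, a ligand of the VEGF receptors (−1.23, adjusted p = 0.000177), Adm2, a ligand of receptors with Ramp subunits (−0.61, adjusted p = 0.00424), and Vegfa, the main ligand of Kdr (−0.57, adjusted p = 0.0188). Angpt1 and Angpt2, the angiopoietins, differed by −0.19 and −0.09 (adjusted p = 0.323 and 0.650). In Runx1 clones Vegfc was lower by a larger amount, at 7.11 in induced and 10.11 in uninduced clones (−3.00, adjusted p = 8.42e-05), with Slit3, a ligand of roundabout receptors (−0.47), also lower and Adm (0.48) and Vegfb (0.39) higher among 10 ligands measured.

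Of 12 partners and related receptors, 2 were higher and 1 lower with Erg. Flt4, the VEGF receptor of lymphatic endothelium, was 7.48 in induced and 6.24 in uninduced clones (1.24, adjusted p = 0.000951), and Eng, endoglin, was 0.58 higher (adjusted p = 0.00290). Nrp2, a coreceptor for VEGF, was lower (−0.56, adjusted p = 0.0311). In Runx1 clones 1 of 11 was higher, the netrin receptor Unc5b, at 9.42 in induced and 7.36 in uninduced clones (2.06), and 4 were lower, namely Robo1 (−1.53), Flt4 (−0.62), Ramp3 (−0.56) and Nrp2 (−0.48). Flt4 thus passed in opposite directions in the Erg and Runx1 experiments. In the junction and endothelial lists below, F11r, Cd34 and Lmo2 did so too.

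Junction partners changed in part. With Erg 5 of 13 were higher, among them plakoglobin Jup (0.96, adjusted p = 0.0268), the endothelial claudin Cldn5 (0.55, adjusted p = 0.0425), the scaffold Tjp1 (0.54) and Ctnnd1, p120-catenin (0.43). F11r was higher too (0.36, adjusted p = 0.0281). Jam2, a junctional adhesion molecule, was lower, at 9.16 in induced and 10.69 in uninduced clones (−1.53, adjusted p = 0.000193). The cadherin Cdh1 of mES cells was at 11.07 in induced and 10.78 in uninduced clones and did not pass. With Runx1 1 of 13 was higher (Cldn5, 0.42) and 2 were lower, the neural cadherin Cdh2 (−0.95, adjusted p = 0.00365) and F11r, another junctional adhesion molecule (−0.31).

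Among 16 other endothelial genes, 8 were higher and 2 lower with Erg, with a median of 0.28 against −0.02 over the probe sets that stand for a gene. The SoxF factor Sox18 was 8.92 in induced and 4.87 in uninduced clones (4.06, adjusted p = 4.03e-06), the blood and endothelial cofactor Lmo2 was 2.99 higher, Nos3, endothelial nitric oxide synthase, 1.41 higher and Ecscr, an endothelial surface protein, 1.23 higher. Notch4 (−1.67, adjusted p = 0.000287) and Vwf, von Willebrand factor (−0.80, adjusted p = 0.00110), were lower, and Emcn, Icam2 and Clec14a did not pass. With Runx1 0 of 14 were higher and 4 were lower, Notch4 (−1.21), Sox7 (−0.78), Cd34 (−0.34) and Lmo2 (−0.31).

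**Figure D4:**
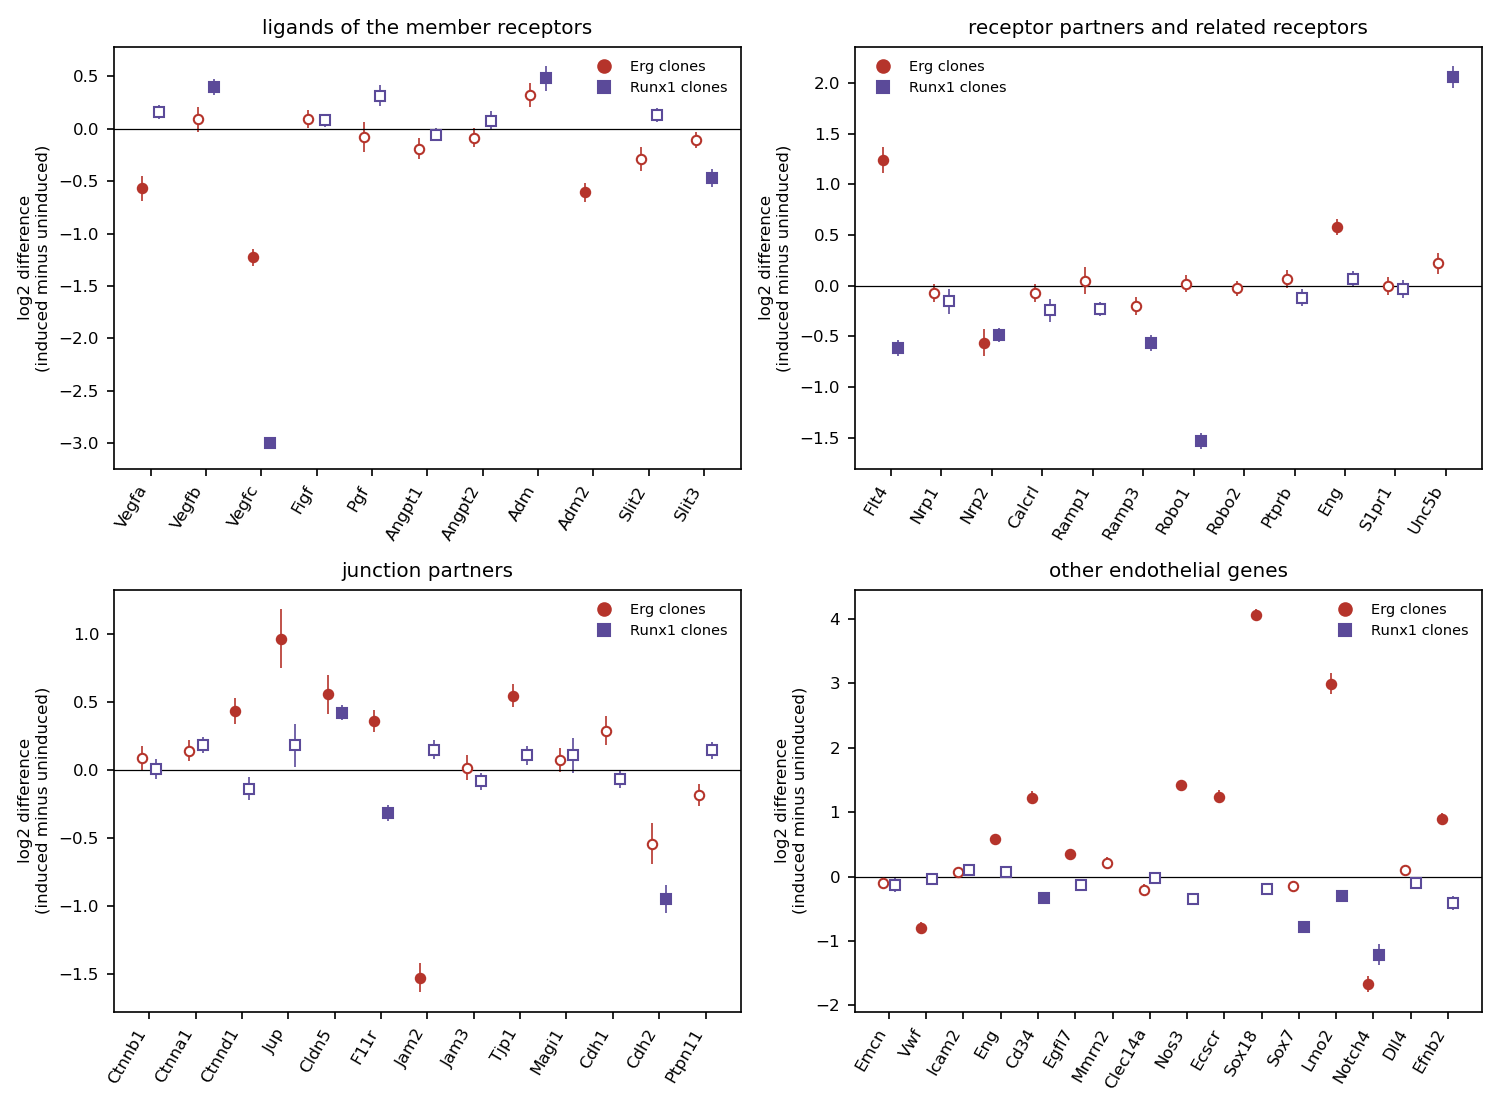
Induced minus uninduced log2 difference with its standard error for genes of 4 lists related to the members, with Erg clones as red circles on the left and Runx1 clones as purple squares on the right of each gene. Filled symbols have an adjusted p below 0.05, and genes without a square were not on the Runx1 array. Flt4, F11r, Cd34 and Lmo2 pass on opposite sides of 0 in the 2 experiments, Vegfc is lower in both, and Sox18 and Lmo2 lead the endothelial genes in Erg clones.

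Over the 20 markers of endothelium, members included, 13 were higher and 1 lower with Erg. Their summed linear level ranged between 5165 and 5537 in induced clones and between 2362 and 2522 in uninduced clones. With Runx1 2 of 18 were higher and 5 lower, with sums between 1879 and 1939 in induced clones and between 2075 and 2178 in uninduced clones. The members are 10 of the 20 markers, and the other markers are all in the junction or endothelial lists above. These counts and sums therefore add no further genes. Among the other markers Cldn5, Eng, Cd34, Egfl7 and Nos3 were higher and Vwf lower with Erg. Emcn, Icam2, Mmrn2 and Clec14a did not pass. Markers of other cell types were measured beside these changes. With Erg 5 of 8 embryonic stem cell markers were lower, led by Nanog (−1.13, adjusted p = 0.000390), and with Runx1 5 of 8 were lower, led by Tdgf1 (−0.91, adjusted p = 0.00104). The summed linear level of the 8 ranged between 45108 and 48190 in Erg-induced clones and between 55103 and 58122 in uninduced clones. For Runx1 it ranged between 63113 and 65832 in induced clones and between 74400 and 77203 in uninduced clones. Their part in the members' changes was not tested. Of 10 blood markers 1 rose with Erg (Lyl1, 0.71) and Ptprc and Cd48 were under the lower quartile of the array, with their sum between 1840 and 2284 in induced clones and between 1756 and 2081 in uninduced clones. With Runx1 1 was lower (Laptm5, −1.15), and the sum of the blood markers lay between 1695 and 2064 in induced clones and between 3392 and 3763 in uninduced clones. Without Laptm5 the sum of the other 9 lay between 476 and 528 in induced clones and between 498 and 520 in uninduced clones. Mural and mesenchymal, primitive endoderm and mesoderm progenitor markers had 0 calls of 7, 6 and 5 measured genes with Erg, and the mesoderm factors Etv2 and Tal1 were at 6.51 and 4.30 in induced clones against 6.40 and 4.32 in uninduced clones. With Runx1 the same lists gave Cnn1 higher (0.52) and Tal1 (−0.37) and Etv2 (−0.34) lower.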

How the data were processed

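The values were log2 expression levels that the authors deposited for 120 Affymetrix arrays, made with RMA in the affy package per the submitters' processing notes, with versions not given in the sources used here. Induced and uninduced arrays were grouped by sample title. Every array column was used (0 unused columns). GEO's platform annotation names 1 gene for 34958 of 45101 probe sets of the Mouse 430_2 array, several for 932 and none for 9211; on the Mouse 430A_2 array these were 20393, 691 and 1606 of 22690. The probe set with the highest mean level stood for a gene in the lists.

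Each experiment was fitted alone with limma 3.58.1 in R 4.3.3, clone as a block, with Benjamini-Hochberg adjustment over all probe sets and a threshold of 0.05. The series pairs each clone before and after induction, and same-numbered arrays deviated together (r above 0.1 in 54 of 60 pairs, median r = 0.376). The Erg response was compared with the mean of the other 18 in 1 fit over all Mouse 430_2 arrays with 57 clone blocks. With the clone as a block, adjusted p-values of 1 experiment measure the spread of the response among its 3 clones. That spread is moderated by limma over all probe sets. Adjusted p-values of the joint fit pool the spread over all Mouse 430_2 arrays. The number of arrays limits the precision of both.

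All 10 members were named, the other 18 experiments by calls and the 3 largest differences, list genes by calls with at most 4 per list and direction. Members, lists and tests were chosen with earlier results of these data known. Alternatives were the fit without the block, a Cyber-t kind of regularization (prior weight 10), the methods' t-test, the joint fit, a filter on dim probe sets, a further quantile normalization, another moderation, another threshold, crossed Sim2 pairing and leaving out clones. The tests were tested on simulated data. Promoter windows came from RefSeq.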

Additional observations from a re-analysis of the deposited data

Results flagged for a closer look

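For 7 members the response to Erg differed from the mean response to the other 18 genes by a test of that difference. The excess was 1.39 for Kdr, 2.58 for Tie1, 2.34 for Robo4, 2.71 for Ramp2, 1.98 for Esam, 0.75 for Pecam1 and 3.09 for Arhgef15 (probe set 1440358_at), and each of the 3 Erg clones was higher for all 7.

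For 4 probe sets every Erg clone was higher and every Runx1 clone lower than its uninduced state. The share of all probe sets with this pattern was not taken, so the 4 cannot be set against a background. The Runx1 differences were −0.41 for Kdr, −0.18 for Flt1 probe set 1419300_at, −1.10 for Robo4 and −1.68 for Esam, beside 1.48, 0.18, 2.39 and 1.98 with Erg. Flt1 passed the test in neither experiment. Its probe set 1419300_at lay under the lower quartile of every Runx1 array and of every uninduced Erg array. The difference between Erg and Runx1 was not tested.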

How the results depend on the processing

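Without the replicate block 9 Erg probe sets were higher in place of 10, 8 in place of 9 exceeded the other 18 genes, and the 2 calls in the other 18 experiments became 0. Those 2 also became 0 with the Cyber-t kind test and the methods' t-test, 1 at a threshold of 0.01 and 13 in the joint fit, and were 8 without replicate 2 and 1 without replicate 3 of each experiment. Shares over all probe sets were not taken for these settings. The methods' t-test left 6 higher probe sets with Erg and 2 lower with Runx1. With Erg it lost Kdr (adjusted p = 0.108), Pecam1 (0.0542), Cdh5 (0.251) and Arhgef15 probe set 1457172_at (0.131). Leaving out dim probe sets left 1 lower with Runx1 because Kdr, Tek and Robo4 lie below the median of that array. Without 1 replicate Erg had 9 to 10 higher and Runx1 3 to 4 lower. Signs turned only for Runx1 differences that had not passed: Tie1, at −0.17, ranged between −0.30 and 0.023 without 1 replicate, and Cdh5 probe set 1422047_at, at −0.05, between −0.12 and 0.013, with 0.017 after the further quantile normalization. Alternative values were labelled for chosen probe sets, mainly those of the Erg and Runx1 experiments. Among these, 273 kept direction and side of the threshold, 19 fell short of it, 2 newly passed and 3 changed sign. Most new calls in the other 18 experiments, as in the joint fit and without replicate 2, lie outside these totals. Why values changed was not tested. Crossing the Sim2 pairing left 2 calls. No Erg, Ets2 or Gabpa probe set passed in its own experiment, although the study reports their tagged proteins on western blots. Dose was not compared.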
